A study of Mus musculus with 14 samples.

Results

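The genes described are 10 secreted proteins that act on blood and lymphatic vessels or carry the angiopoietin-like fold: Vegfa, Vegfb, Vegfc, Pgf, Angpt1, Angpt2, Angptl2, Angptl4, Fgf1 and Fgf2. They were chosen by name, and all 10 were found by symbol among the 38553 genes of the deposited tables. All 10 passed the filter on low values that left 14959 genes for testing. Poly(A) RNA had been sequenced from adipocytes of male C57BL/6 mice, from the epididymal and inguinal white pads and the interscapular brown pad. Mice were given regular chow (normal diet) or a high-fat diet for 16 weeks, beginning when they were weaned at the age of 3 weeks. Pads were digested with collagenase for 20 min (white) or 40 min (brown), and the floating adipocyte layer was taken. Each library pooled the tissue of 3 to 5 mice. There were 14 libraries, 3 for each of the 4 white groups (numbered 0, 1 and 2 by the labels and called biological triplicates in the series design) and 1 brown library per diet.

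Vessels in fat grow and regress under the balance of such factors. Vascular endothelial growth factors (VEGFs) bind tyrosine kinase receptors on endothelial cells, VEGF-A through KDR and FLT1, VEGF-B and placental growth factor through FLT1, and VEGF-C through FLT4, which drives lymphatic growth. Angiopoietin-1 keeps vessels quiet through the receptor TEK, and angiopoietin-2 antagonises it in many settings. Fibroblast growth factors (FGFs) act through FGFR1 and its relatives, and in mouse white fat Fgf1 is known as a gene of expansion under high-fat feeding. ANGPTL4 inhibits lipoprotein lipase, the enzyme that releases fatty acids from circulating triglyceride, and ANGPTL2 is an adipocyte-secreted protein linked to inflammation in obesity.

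Values are FPKM, that is, sequenced fragments divided by transcript length and by library size, so levels of different genes can be compared per length. Read depth per library was unknown. Between 15399 and 18029 genes lay above 0 in each library. The 10 adipocyte markers summed to between 17619 and 43685 FPKM in every library, with none at 0 in all libraries of a group. In inguinal normal-diet replicates 0, 1 and 2 they summed to 17713, 43685 and 23219 FPKM. The 10 thermogenic markers summed to 598 and 1063 FPKM in the brown normal-diet and high-fat libraries, and to at most 278 FPKM in a white library. Most of the white normal-diet sums came from Adrb3, at means of 231 FPKM in epididymal and 147 FPKM in inguinal libraries. Ucp1 averaged 0.089 and 1.72 FPKM in the same groups. Markers of other cells moved with the groups. The 11 endothelial markers summed to 483 to 605 FPKM in epididymal normal-diet, 50.1 to 93.0 in epididymal high-fat, 351 to 572 in inguinal normal-diet and 250 to 354 in inguinal high-fat libraries. The 14 macrophage markers summed to 364 to 656, 1028 to 1847, 160 to 301 and 194 to 322 FPKM in the same order. The 12 fibroblast and progenitor markers summed to 886 to 1559, 401 to 557, 848 to 2538 and 939 to 1224 FPKM. For the 7 mural markers the sums were 136 to 184, 100 to 145, 37.1 to 112 and 149 to 174 FPKM. Abundant genes rule such sums. By the test described below, 6 fibroblast and progenitor markers fell and 1 rose with the high-fat diet in inguinal cells (median log2 −1.33). In epididymal cells 6 fell and 0 rose (median −1.67). The 14 lymphocyte markers reached 642, 81.5 and 1036 FPKM in inguinal normal-diet replicates 0, 1 and 2 and at most 30.1 FPKM in the other white libraries. The 5 erythroid markers summed to 1098 to 3483 FPKM in epididymal normal-diet, 273 to 419 in epididymal high-fat, 316 to 4849 in inguinal normal-diet and 63.2 to 150 in inguinal high-fat libraries, so that in each white depot every high-fat library lay below every normal-diet one. The share of protein-coding FPKM from mitochondrial genes was 40.3% to 66.7% in epididymal normal-diet and 26.9% to 37.0% in epididymal high-fat libraries, with no overlap. In inguinal libraries it was 20.6% to 60.7% and 26.9% to 35.2%, and in the brown normal-diet and high-fat libraries 80.7% and 82.5%. The part of erythroid RNA in the diet results was not tested, and scaling to nuclear protein-coding FPKM is among the alternatives. In such bulk samples fewer cells of a type and less RNA per cell cannot be told apart.

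The 10 factors covered a wide range of levels in white adipocytes. Angptl4 stood above 98.1% to 99.3% of the genes tested, depending on the group. Vegfa (94.1% to 96.8%), Vegfb (93.4% to 96.0%) and Angptl2 (88.0% to 93.0%) were also among the abundant transcripts. Fgf1 changed rank most between groups, from above 42.7% of genes tested in inguinal normal-diet to above 88.2% in epididymal high-fat libraries. Vegfc, Angpt2 and Pgf were low in every white group, at ranks between 7.71% and 34.9%.

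**Figure D1:**
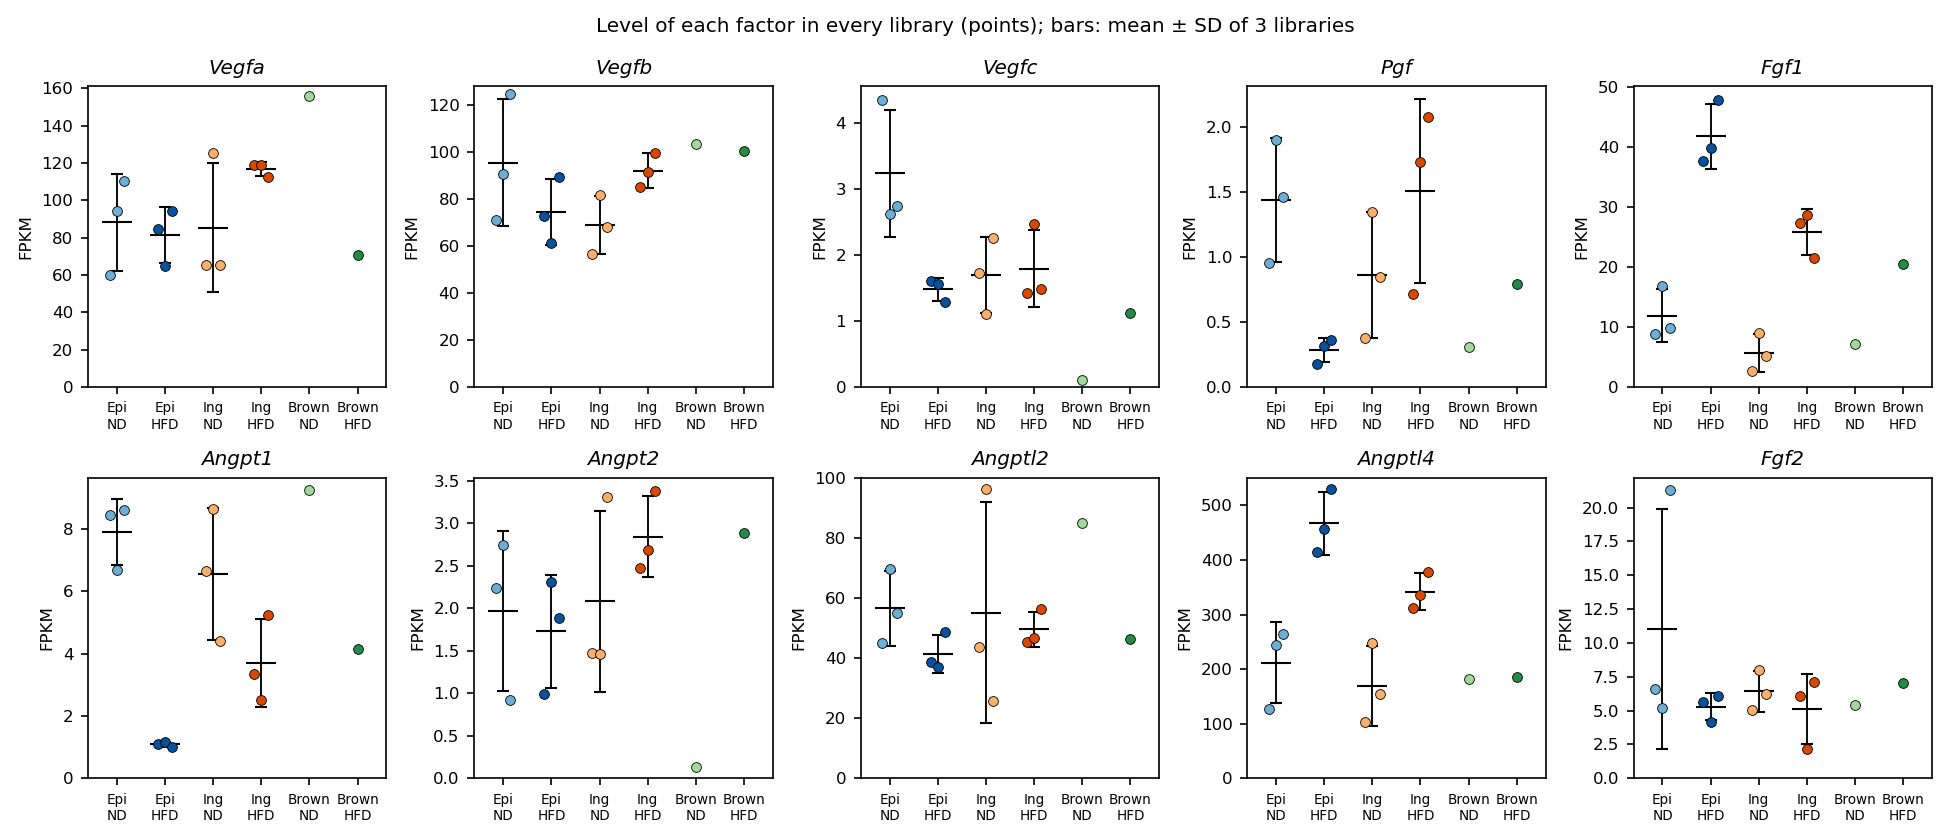
Level of each of the 10 factors in FPKM (vertical axes, linear and from 0) in every library, by depot (Epi, epididymal; Ing, inguinal; Brown) and diet (ND, normal; HFD, high-fat). Points are libraries and bars the mean ± SD of 3; in each white depot the high-fat points of Fgf1 and Angptl4 lie above the normal-diet points, and Angpt1 lies between 0.993 and 1.16 FPKM in the epididymal high-fat libraries against 6.69 to 8.60 FPKM in the epididymal normal-diet ones.

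In epididymal adipocytes 5 of the 10 factors passed the test for diet. Angptl4 and Fgf1 rose on the high-fat diet, and Angpt1, Pgf and Vegfc fell. The test was limma on log2(FPKM + 0.5) with Benjamini-Hochberg adjustment over 14959 genes and an adjusted p of 0.05 as the threshold. It called 19.5% of all genes in this comparison, 12.2% higher and 7.35% lower. The median log2 difference of the 10 factors was −0.39, beside 0.07 for all genes tested. In inguinal adipocytes 2 factors passed, Angptl4 and Fgf1, both higher, where 19.5% of all genes were called, 9.3% higher and 10.2% lower. There the median of the 10 was 0.43, beside −0.01 for all genes tested. The groups did not overlap for 5 factors in epididymal and 3 in inguinal libraries, against 42.4% and 33.1% of all genes tested.

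Angpt1 (ENSMUSG00000022309, chromosome 15, 42424667 to 42676977 in GRCm38.p6), the TEK agonist, had the lowest adjusted p of the 10 in epididymal cells. Its levels were 8.44, 6.69 and 8.60 FPKM in epididymal normal-diet replicates 0, 1 and 2, and 1.11, 1.16 and 0.993 FPKM in epididymal high-fat replicates. The high-fat libraries lay together and far below all normal-diet ones. The means, 1.09 ± 0.0857 and 7.91 ± 1.06 FPKM (SD, n = 3 each), differed 7.28-fold, with a log2 difference of −2.40 (SE 0.28, adjusted p = 0.000132). It was called under all 23 alternative settings.

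In inguinal cells Angpt1 stood at 6.64, 8.66 and 4.41 FPKM on the normal diet and at 3.35, 2.50 and 5.24 FPKM on the high-fat diet. High-fat replicate 2 lay above normal-diet replicate 2, so the groups overlapped. The log2 difference of −0.76 (SE 0.28) missed the threshold, at an adjusted p of 0.0799. It passed without inguinal normal-diet replicate 2 (0.0347), without inguinal high-fat replicate 2 (0.0450) and with array weights (0.0434).

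The epididymal diet effect on Angpt1 was larger in the negative direction than the inguinal one. The difference between the log2 effects, the interaction, was −1.64 (SE 0.40, adjusted p = 0.0308), and Angpt1 was the single factor of the 10 called there, where 7.22% of all genes were called, 4.8% higher and 2.42% lower. The median interaction of the 10 was −0.58, beside 0.07 for all genes tested. The call on Angpt1 held in 12 of 22 alternatives. The adjusted p rose to 0.0720 and 0.0713 without epididymal normal-diet replicate 0 or 2, to 0.0757, 0.0726 and 0.0642 without epididymal high-fat replicate 0, 1 or 2, to 0.0502 without inguinal normal-diet replicate 0, to 0.0607 and 0.0782 without inguinal high-fat replicate 0 or 2, and to 0.0625 with no filter on low values. Without the pair of inguinal normal-diet libraries highest in lymphocyte markers it was 0.133.

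In order of mean level Angpt1 was highest in epididymal normal-diet (7.91 FPKM), then inguinal normal-diet (6.57 ± 2.12), inguinal high-fat (3.70 ± 1.40) and epididymal high-fat libraries (1.09). The first and the second in that order overlapped, as did the second and the third, while epididymal high-fat lay apart from inguinal high-fat. The depot difference on the high-fat diet was 3.40-fold, with a log2 difference of −1.35 (SE 0.28, adjusted p = 0.0101). Leaving out inguinal high-fat replicate 2 took it to 0.0508.

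The antagonist Angpt2 (ENSMUSG00000031465, chromosome 8, 18690263 to 18741562) did not pass the test in either diet comparison. Epididymal levels were 2.24, 2.74 and 0.927 FPKM on the normal and 0.997, 2.31 and 1.88 FPKM on the high-fat diet, and the groups overlapped (log2 −0.11, adjusted p = 0.885). Inguinal levels were 1.48, 1.46 and 3.31 FPKM against 2.47, 2.68 and 3.38 FPKM, also with overlap through normal-diet replicate 2 (log2 0.44, adjusted p = 0.445). Angpt2 lies inside Mcph1 in the RefSeq annotation, and without a stated strand setting reads of the pair cannot be told apart. Mcph1 was not called for diet in epididymal (adjusted p = 0.134) or inguinal cells (0.279).

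The ratio of Angpt2 to Angpt1 was taken within each library, as a difference of log2(FPKM + 0.5). In epididymal libraries it was −1.71, −1.15 and −2.67 on the normal diet and −0.10, 0.76 and 0.67 on the high-fat diet. The high-fat values exceeded every normal-diet value, by 2.29 on average (0.44 ± 0.47 against −1.84 ± 0.77, SD, n = 3 each). The exact two-sided permutation p was 0.1, the smallest that 3 against 3 libraries can give, and 0.229 after Benjamini-Hochberg adjustment over 16 ratio tests. In inguinal libraries the mean ratio was 1.20 higher on the high-fat diet, with overlap between the groups (exact permutation p = 0.3).

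Placental growth factor, encoded by Pgf (ENSMUSG00000004791, chromosome 12, 85166637 to 85177785), was a low transcript that fell in epididymal cells. It stood at 0.952, 1.90 and 1.46 FPKM on the normal diet and at 0.177, 0.316 and 0.357 FPKM on the high-fat diet. Every high-fat library lay below every normal-diet one. The means of 0.283 ± 0.0941 and 1.44 ± 0.476 FPKM (SD, n = 3 each) differed 5.08-fold. The log2 difference, which the added 0.5 FPKM makes smaller for so low a gene, was −1.28 (SE 0.37, adjusted p = 0.0281). The call was lost without epididymal normal-diet replicate 1 (0.1003) or 2 (0.0714) and without high-fat replicate 0 (0.102), 1 (0.0716) or 2 (0.0611), and under a filter of 2 FPKM the gene was not tested.

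In inguinal cells Pgf stood at 0.377, 1.35 and 0.847 FPKM on the normal and 0.715, 1.73 and 2.08 FPKM on the high-fat diet, with overlap (log2 0.56, adjusted p = 0.309). The interaction, −1.84 (SE 0.52), missed the threshold at 0.0533. It passed without inguinal normal-diet replicate 1 (0.0162), without inguinal high-fat replicate 0 (0.0358), with a pseudocount of 0.1 (0.0487), TMM factors (0.0316), quantile normalization (0.0370), nuclear scaling (0.0315), array weights (0.00326) and the replicate block (0.0217). On the high-fat diet Pgf was 5.32-fold lower in epididymal than in inguinal libraries (log2 −1.29, SE 0.37, adjusted p = 0.0426). That call was lost with a pseudocount of 1 (0.0519), with no filter (0.0725), and without epididymal normal-diet replicate 1 (0.0546) or 2 (0.0557), epididymal high-fat replicate 0 (0.154), 1 (0.114) or 2 (0.0881), or inguinal high-fat replicate 1 (0.138) or 2 (0.175).

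Vegfc (ENSMUSG00000031520, chromosome 8, 54077532 to 54186454), the lymphatic growth factor, also fell in epididymal cells. Its levels were 4.35, 2.61 and 2.75 FPKM on the normal and 1.61, 1.56 and 1.28 FPKM on the high-fat diet. No library of either group reached the other group, and normal-diet replicate 0 stood highest. The means of 1.48 ± 0.176 and 3.24 ± 0.966 FPKM (SD, n = 3 each) differed 2.19-fold (log2 −0.89, SE 0.29), at an adjusted p of 0.0476 just under the threshold. The call held in 8 of 23 alternatives and was lost, among others, without epididymal normal-diet replicate 0 (0.170), 1 (0.0622) or 2 (0.0695), epididymal high-fat replicate 0 (0.104), 1 (0.108) or 2 (0.145), inguinal normal-diet replicate 0 (0.0574) and inguinal high-fat replicate 0 (0.0598) or 2 (0.0621).

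In inguinal cells Vegfc ranged from 1.11 to 2.25 FPKM on the normal and from 1.43 to 2.47 FPKM on the high-fat diet, with overlap (log2 0.07, adjusted p = 0.892). The interaction of −0.96 missed the threshold (adjusted p = 0.185). Epididymal normal-diet libraries all lay above inguinal normal-diet ones, as for 19.1% of all genes in either direction, although the log2 difference of 0.77 did not pass (adjusted p = 0.130).

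Vegfa (ENSMUSG00000023951, chromosome 17, 46016993 to 46032377), the main ligand of KDR, showed no called change with diet. Epididymal levels were 59.8, 94.5 and 110.4 FPKM on the normal and 84.7, 64.9 and 94.4 FPKM on the high-fat diet, and the groups overlapped fully. The log2 difference was −0.09 (SE 0.28, adjusted p = 0.882), and its sign turned without epididymal normal-diet replicate 2 (0.10) or high-fat replicate 1 (0.07). Inguinal levels were 65.1, 125.2 and 65.4 FPKM on the normal and 119.2, 118.7 and 112.3 FPKM on the high-fat diet. Normal-diet replicate 1 stood above all high-fat libraries and the other two far below them, and the log2 difference of 0.52 did not pass (adjusted p = 0.217). Without that replicate it was 0.83 with an adjusted p of 0.0229, and with array weights 0.72 with 0.0363. With replicates 0 and 2 left out instead it was −0.10. Summed adipocyte markers were also highest of their group in inguinal normal-diet replicate 1 (43685 FPKM, against 17713 and 23219 in replicates 0 and 2). So were all of the 10 factors except Vegfc and Angpt2. The part of these differences between libraries in the inguinal normal-diet values was not tested. On the high-fat diet all epididymal libraries lay below all inguinal ones (log2 −0.53, adjusted p = 0.303). That difference was called with quantile normalization (−0.78, 0.0424), nuclear scaling (−0.77, 0.0381), only the groups compared (−0.53, 0.0497) and array weights (−0.55, 0.0407).

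Vegfb (ENSMUSG00000024962, chromosome 19, 6982472 to 6987651), a FLT1 ligand, stood close to Vegfa in level. It measured 71.2, 90.6 and 124.6 FPKM in epididymal normal-diet and 72.8, 61.1 and 89.3 FPKM in epididymal high-fat libraries. These groups overlapped (log2 −0.34, adjusted p = 0.347), but the difference was called with quantile normalization (−0.61, 0.0155) and with scaling to nuclear protein-coding FPKM (−0.53, 0.0276). In inguinal libraries it measured 56.7, 81.5 and 68.2 FPKM on the normal and 85.1, 91.5 and 99.6 FPKM on the high-fat diet. There every high-fat library stood above every normal-diet one, yet the log2 difference of 0.43 did not pass (adjusted p = 0.202). Vegfb was also called in the interaction with quantile normalization (0.0325), nuclear scaling (0.0280) and array weights (0.0294), and between depots on the high-fat diet with quantile normalization (0.0457) and nuclear scaling (0.0376).

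Vegfa made up 43.9% to 49.8% of the summed FPKM of Vegfa, Vegfb, Vegfc and Pgf in epididymal normal-diet and 50.8% to 53.2% in epididymal high-fat libraries. The share was 5.01 percentage points higher on the high-fat diet with no overlap (exact permutation p = 0.1). In inguinal libraries it was 53.4% ± 6.06 and 55.1% ± 2.82 (SD, n = 3 each) with overlap (exact permutation p = 0.8). Across the 12 white libraries Vegfa and Vegfb were the most alike pair of the 10: after centring, their log2 values differed by a root mean square of 0.244. They also varied least around their own means, by 0.380 for Vegfa and 0.302 for Vegfb, which keeps such a distance small.

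The promoters of the VEGF ligands are shown because Vegfa is a known target of hypoxia-inducible factors and the members differed in response. The RefSeq promoter table on GRCm38.p6 held windows for 6 of the 10 factors, and those of Vegfa, Vegfb and Vegfc that lie wholly before the annotated gene are printed, 250 bases each. Capitals mark matches to the core of the hypoxia response element, searched as ACGTG and GCGTG on both strands.
Vegfa, chr17:46032378-46032627, minus strand: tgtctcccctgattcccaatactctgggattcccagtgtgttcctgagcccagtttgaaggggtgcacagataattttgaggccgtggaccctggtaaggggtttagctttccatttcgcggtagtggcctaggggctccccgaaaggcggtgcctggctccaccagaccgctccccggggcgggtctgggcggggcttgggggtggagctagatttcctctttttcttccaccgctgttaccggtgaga
Vegfb, chr19:6987652-6987901, minus strand: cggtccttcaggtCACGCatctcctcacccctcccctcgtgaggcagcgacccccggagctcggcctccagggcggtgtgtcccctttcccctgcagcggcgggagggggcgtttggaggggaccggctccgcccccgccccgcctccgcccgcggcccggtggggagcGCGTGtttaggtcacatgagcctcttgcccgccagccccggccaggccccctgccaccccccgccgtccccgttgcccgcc
Vegfc, chr8:54077282-54077531, plus strand: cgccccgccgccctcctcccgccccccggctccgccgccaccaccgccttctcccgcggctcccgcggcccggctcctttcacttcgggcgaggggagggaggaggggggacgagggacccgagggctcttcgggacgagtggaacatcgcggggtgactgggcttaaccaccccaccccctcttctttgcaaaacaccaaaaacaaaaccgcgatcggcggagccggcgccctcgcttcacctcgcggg
The Vegfb window held 2 matches, 237 and 81 bases before the start, and the printed ones of Vegfa and Vegfc held 0. A further RefSeq window of Vegfa, inside the annotated gene and not printed, held 2 matches, 218 and 211 bases before its own start. A window of Pgf and that of Fgf2 held 1 each. The core occurred in 38.6% of the 32851 promoters of the same length. The GC content of the windows was 59.2%, 76.4% and 71.6%, and the GC box GGGCGG, searched on both strands, occurred 2, 4 and 2 times (32.7% of all promoters hold it). TATAAA was in none of the 3, and in 12.4% of all promoters. Matches of letters in these windows are descriptions, and other regulatory sequence was not searched.

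Fgf1 (ENSMUSG00000036585, chromosome 18, 38838672 to 38929470) rose in both white depots. In epididymal libraries it stood at 8.79, 16.9 and 9.88 FPKM on the normal and 37.7, 39.9 and 48.0 FPKM on the high-fat diet. In inguinal libraries the values were 2.62, 8.94 and 5.21 FPKM against 27.3, 28.8 and 21.5 FPKM. In each depot every high-fat library stood above every normal-diet one, by a wide margin. The epididymal means of 41.9 ± 5.42 and 11.9 ± 4.41 FPKM (SD, n = 3 each) differed 3.53-fold (log2 1.83, SE 0.35, adjusted p = 0.00338), and the inguinal means of 25.9 ± 3.87 and 5.59 ± 3.18 FPKM 4.63-fold (log2 2.24, SE 0.35, adjusted p = 0.00173). Both calls held under all 23 alternatives. The diet effects were not shown to differ between depots (interaction −0.42, adjusted p = 0.685, and 0.0486 with array weights).

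By mean level Fgf1 ran from epididymal high-fat through inguinal high-fat and epididymal normal-diet to inguinal normal-diet libraries. Epididymal exceeded inguinal high-fat libraries without overlap (log2 0.69, adjusted p = 0.282, and 0.0238 on only the groups compared). The normal-diet groups overlapped narrowly (log2 1.11, adjusted p = 0.0835). That difference was called without inguinal normal-diet replicate 1 (0.00745), with TMM factors (0.0441), quantile normalization (0.0365), array weights (0.00290) and the replicate block (0.0495). Fgf1 lies inside Arhgap26 in the annotation. Arhgap26 was not called for diet (log2 −0.64, adjusted p = 0.209 in epididymal and −0.51, 0.293 in inguinal cells), and its sign was opposite to that of Fgf1.

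Fgf2 (ENSMUSG00000037225, chromosome 3, 37348477 to 37410106) did not pass. Epididymal levels were 6.62, 5.21 and 21.3 FPKM on the normal and 5.66, 4.16 and 6.05 FPKM on the high-fat diet. Normal-diet replicate 2 stood far above the other libraries, and the rest overlapped (log2 −0.74, adjusted p = 0.334). Nudt6, which overlaps Fgf2 by 5125 bases, was also highest of its group in that library, at 17.4 FPKM beside 7.99 and 8.28 FPKM. It was higher still in inguinal normal-diet replicate 1 (19.7 FPKM), where Fgf2, at 8.01 FPKM, was also highest of its group. The 6 epididymis markers, with 5 at 0, summed to 38.3 FPKM in epididymal normal-diet replicate 2. In every other library they summed to at most 1.37 FPKM. That library was also highest of its group for Vegfa (110.4 FPKM), Vegfb (124.6), Angptl4 (264.8) and Angpt1 (8.60), and lowest for Angpt2 (0.927). For Vegfc, Pgf, Angptl2 and Fgf1 it lay between the other replicates. The part of epididymis RNA in the Fgf2 value, or in those of the other factors in that library, was not tested. Inguinal Fgf2 levels ran from 5.02 to 8.01 and from 2.17 to 7.13 FPKM on the normal and high-fat diets (log2 −0.41, adjusted p = 0.584).

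The log2 ratio of Fgf1 to Fgf2 was 0.38, 1.61 and −1.07 in epididymal normal-diet and 2.63, 3.12 and 2.89 in epididymal high-fat libraries. In inguinal libraries it was −0.82, 0.15 and −0.24 against 2.09, 3.45 and 1.53. In both depots every high-fat library lay above every normal-diet one, by 2.57 and 2.66 on average (exact permutation p = 0.1 each).

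Angptl4 (ENSMUSG00000002289, chromosome 17, 33774900 to 33781575), the lipoprotein lipase inhibitor, was the most abundant of the 10 in every library and rose in both white depots. Epididymal levels were 127.7, 243.4 and 264.8 FPKM on the normal and 415.4, 455.9 and 529.3 FPKM on the high-fat diet. Inguinal levels were 103.3, 247.6 and 155.1 FPKM against 311.0, 335.2 and 378.2 FPKM. The groups did not overlap in either depot. The epididymal means rose 2.20-fold (212 ± 73.7 to 467 ± 57.7 FPKM, SD, n = 3 each, log2 1.20, SE 0.33, adjusted p = 0.0221) and the inguinal means 2.02-fold (169 ± 73.1 to 341 ± 34.0 FPKM, log2 1.10, SE 0.33, adjusted p = 0.0345).

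The epididymal call on Angptl4 was lost without epididymal normal-diet replicate 0 (0.0844) or high-fat replicate 0 (0.0512), 1 (0.0637) or 2 (0.0802). The inguinal call was lost without inguinal normal-diet replicate 0 (0.116) or 2 (0.0805), without inguinal high-fat replicate 0 (0.0674), 1 (0.0874) or 2 (0.105), and without epididymal high-fat replicate 1 (0.0512). With inguinal normal-diet replicates 0 and 2 both left out the log2 difference was 0.46 (adjusted p = 0.524). The diet effects were not shown to differ between depots (interaction 0.10, adjusted p = 0.933). Between depots on the normal diet Angptl4 was called with array weights alone (log2 0.90, adjusted p = 0.0467).

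Angptl2 (ENSMUSG00000004105, chromosome 2, 33215951 to 33247725) was not called in any comparison, except for diet in epididymal cells with array weights (log2 −0.63, adjusted p = 0.0296). Epididymal levels were 44.9, 69.8 and 55.0 FPKM on the normal and 38.6, 36.9 and 48.7 FPKM on the high-fat diet, with overlap (log2 −0.43, adjusted p = 0.472). Inguinal normal-diet libraries spread widely, at 43.6, 96.2 and 25.6 FPKM, around high-fat values of 45.4, 46.8 and 56.4 FPKM (log2 0.05, adjusted p = 0.941). Angptl2 lies inside Ralgps1 in the annotation, whose level was at most 3.10 FPKM in any library.

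**Figure D2:**
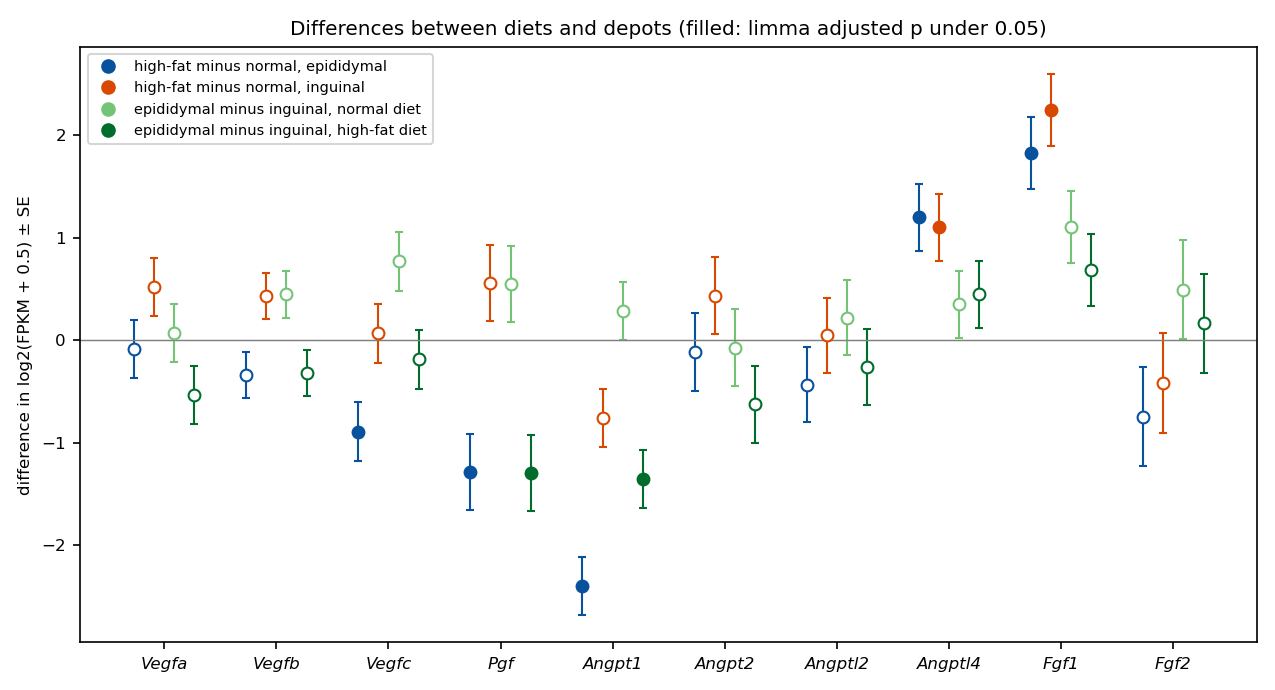
Differences in log2(FPKM + 0.5) ± SE of each factor between diets in each white depot and between depots on each diet (3 libraries per group; filled symbols, limma adjusted p under 0.05). Fgf1 and Angptl4 lie above 1 in both diet comparisons, Angpt1 reaches −2.40 in the epididymal one, and Pgf and Angpt1 are the factors called between depots on the high-fat diet.

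Between the depots, 0 of the 10 factors passed on the normal diet by limma, with 2 at an unadjusted p under 0.05 (Fgf1 and Vegfc), where 6.51% of all genes were called, 2.36% higher and 4.15% lower in epididymal cells. On the high-fat diet 2 passed, Angpt1 and Pgf, both lower in epididymal cells, where 10.6% of all genes were called, 7.08% higher and 3.53% lower. The groups did not overlap on that diet for 6 factors, Vegfa, Pgf, Angpt1, Angpt2, Angptl4 and Fgf1, against 38.4% of all genes. The median log2 difference of the 10 was 0.40 on the normal and −0.29 on the high-fat diet, beside 0.00 and 0.04 for all genes tested. The depot and diet comparisons share libraries.

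Receptors of the VEGF and angiopoietin ligands fell in epididymal cells on the high-fat diet. Counts of this and the following gene lists stand beside 12.2% of all genes called higher and 7.35% lower in epididymal cells. In inguinal cells these shares were 9.3% and 10.2%. Of 5 VEGF receptors and co-receptors 4 fell and 0 rose in epididymal cells. Kdr, the main VEGF-A receptor, was at 41.3, 47.6 and 41.2 FPKM on the normal and 2.54, 5.70 and 5.48 FPKM on the high-fat diet, far apart (log2 −3.18, adjusted p = 1.21e-05). Flt1, receptor of VEGF-A, VEGF-B and placental growth factor, fell from 31.8 ± 5.89 to 3.38 ± 1.15 FPKM (SD, n = 3 each, log2 −3.09, adjusted p = 1.21e-05). Flt4, the VEGF-C receptor, fell from 3.19 to 0.455 FPKM (log2 −1.92, adjusted p = 0.000439), and the co-receptor Nrp1 from 53.7 to 33.5 FPKM (log2 −0.67, adjusted p = 0.0468).

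Of 4 TIE receptors and regulators 3 fell and 1 rose. Tek, the angiopoietin receptor, was at 18.9, 21.9 and 17.8 FPKM on the normal and 1.43, 2.61 and 4.91 FPKM on the high-fat diet (log2 −2.65, adjusted p = 0.000113). Its partner Tie1 (log2 −2.69) and the phosphatase Ptprb (log2 −3.05), which acts on TEK, fell with it. Of the 11 endothelial markers, which include Tek and Tie1, 10 were called, and all of these fell (median log2 −2.70 over the 11). Angpt1, Pgf and Vegfc fell in libraries whose summed endothelial markers were also lower. Of 7 mural markers 3 fell and 1 rose in these cells (median log2 −1.12). Of 12 fibroblast and progenitor markers 6 fell and 0 rose, and of 14 macrophage markers 7 rose and 2 fell. The part of these shifts, and of the endothelial one, in the values of the ligands was not tested.

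In inguinal cells 1 of the 5 VEGF receptors was called, Flt1, which fell from 25.1 to 13.6 FPKM (log2 −0.88, adjusted p = 0.0297). That count is near the 19.5% of all genes called there. Kdr stood at 37.0 ± 4.09 and 22.4 ± 4.35 FPKM (log2 −0.73, adjusted p = 0.0707), and Tek at 14.5 ± 1.95 and 8.26 ± 0.953 FPKM (log2 −0.77, adjusted p = 0.0944). Of the 4 TIE genes 0 were called. The diet effects differed between depots for Kdr (interaction −2.45, adjusted p = 0.00479), Flt1 (−2.21, 0.00640), Flt4 (−1.497, 0.0377), Tek (−1.88, 0.0237), Tie1 (−2.34, 0.00525) and Ptprb (−2.73, 0.00348).

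**Figure D3:**
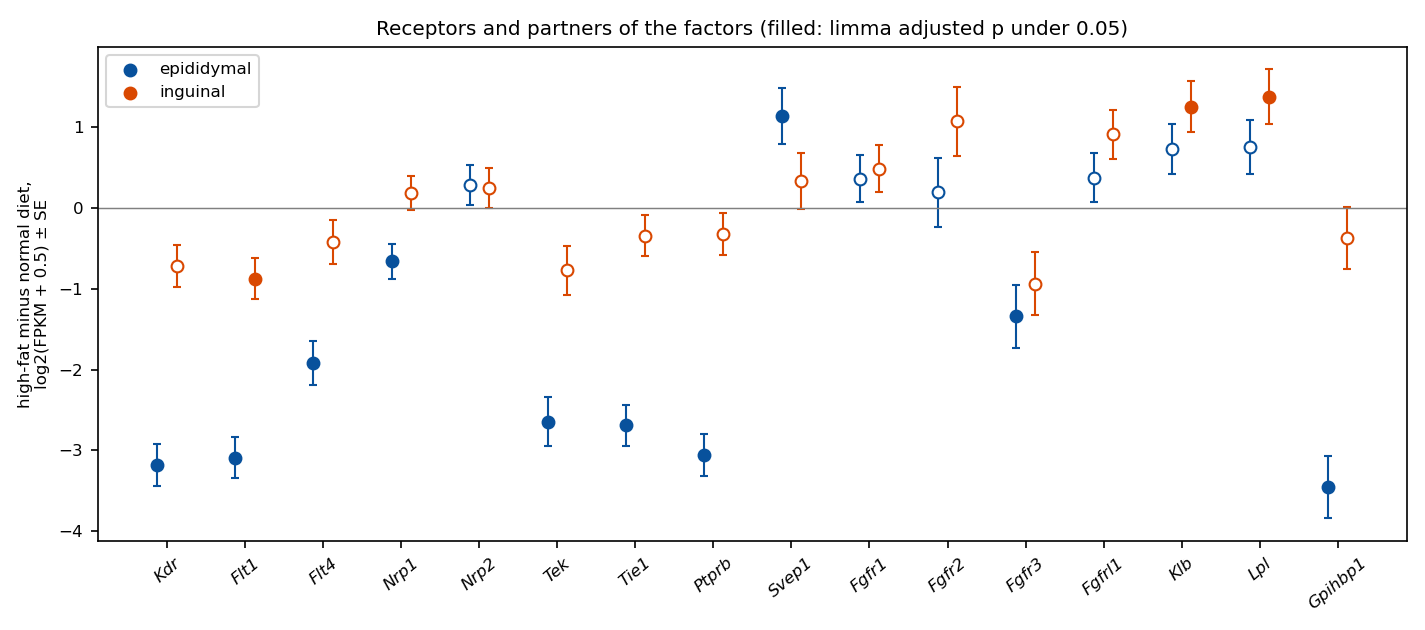
High-fat minus normal-diet difference in log2(FPKM + 0.5) ± SE for receptors and partners of the factors in epididymal and inguinal adipocytes (3 libraries per group; filled symbols, limma adjusted p under 0.05). Kdr, Flt1, Tek, Tie1, Ptprb and Gpihbp1 lie below −2 in epididymal cells and between −1 and 0 in inguinal cells.

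The ratio of ligand to receptor RNA was taken within each library. The log2 ratio of Vegfa to Kdr was 0.53, 0.98 and 1.41 in epididymal normal-diet and 4.81, 3.40 and 3.99 in epididymal high-fat libraries. In inguinal libraries it was 0.85, 1.89 and 0.65 against 2.75, 2.23 and 2.15. The high-fat values exceeded every normal-diet value in both depots, by 3.09 and 1.25 on average, and epididymal high-fat values exceeded every inguinal high-fat value by 1.69 on average (exact permutation p = 0.1 each, adjusted 0.229). In epididymal cells the numerator showed no called change and the denominator fell.

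**Figure D4:**
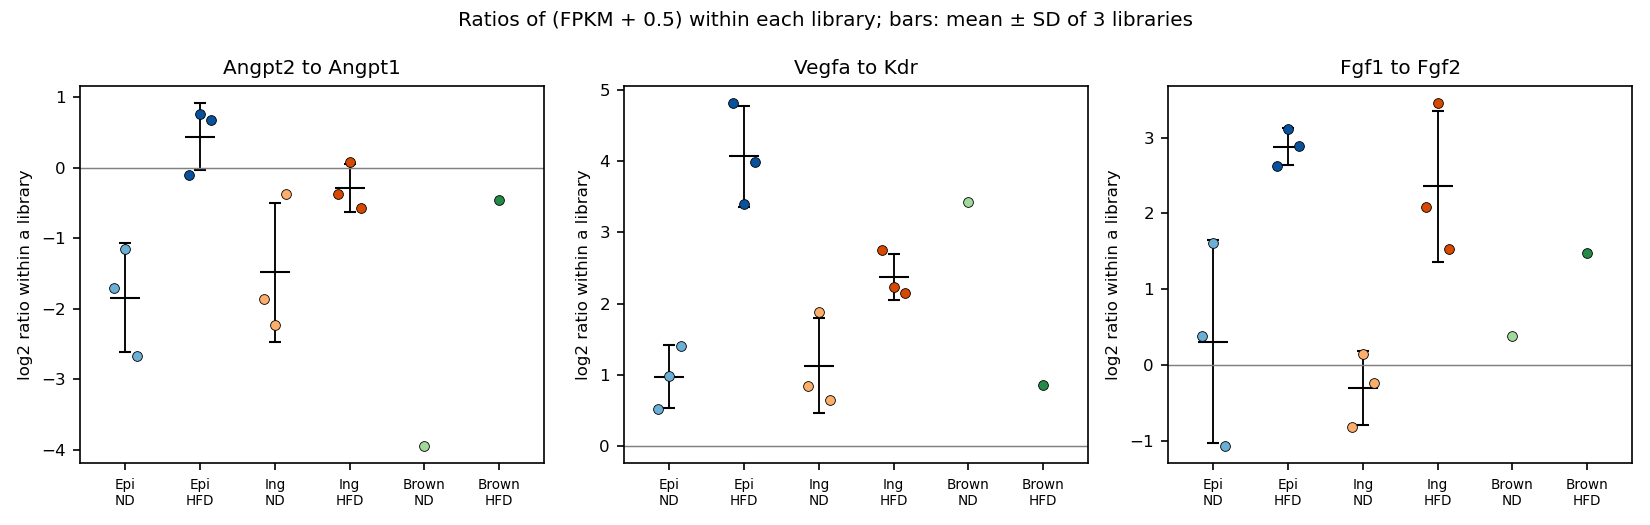
Log2 ratios within each library, taken on FPKM + 0.5, of Angpt2 to Angpt1, Vegfa to Kdr and Fgf1 to Fgf2 (points, libraries; bars, mean ± SD of 3). Each ratio is higher in all epididymal high-fat than in all epididymal normal-diet libraries, and Vegfa to Kdr reaches 3.40 to 4.81 in the epididymal high-fat group.

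Of 7 tested of 10 FGF receptors and co-factors, 1 rose and 1 fell in epididymal and 2 rose in inguinal cells. The epididymal counts are near the shares of all genes called, 12.2% higher and 7.35% lower. In inguinal cells 9.3% of all genes were called higher. Fgfr1, the main FGF receptor of fat, was not called (log2 0.36, adjusted p = 0.453 and 0.48, 0.271). The heparan sulfate proteoglycan Gpc1 rose from 5.92 to 45.6 FPKM in epididymal (log2 2.85, adjusted p = 8.97e-06). In inguinal cells Gpc1 rose from 4.27 to 51.0 FPKM (log2 3.44, adjusted p = 7.27e-06). Fgfr3 fell in epididymal cells (log2 −1.34, adjusted p = 0.0308) and the co-receptor Klb rose in inguinal cells (log2 1.25, adjusted p = 0.0169).

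Around Angptl4, 9 genes of the lipoprotein lipase system were tested. In epididymal cells 2 rose and 1 fell, and in inguinal cells 5 rose and 0 fell. Lpl, the enzyme that ANGPTL4 inhibits, rose in inguinal cells from 959 ± 386 to 2407 ± 530 FPKM (SD, n = 3 each, log2 1.37, adjusted p = 0.0149) and was not called in epididymal cells (log2 0.75, adjusted p = 0.146). Gpihbp1, the capillary anchor of the enzyme, was at 165, 277 and 199 FPKM in epididymal normal-diet and 8.95, 26.8 and 26.7 FPKM in epididymal high-fat libraries (log2 −3.45, adjusted p = 0.000103). It was not called in inguinal cells (log2 −0.38, adjusted p = 0.527), and the interaction passed (−3.07, adjusted p = 0.00868). Vldlr, a receptor for lipoproteins, rose in both depots (log2 1.94 and 2.33), as did Angptl8 (log2 3.27, adjusted p = 0.0162 in epididymal cells).

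Of 19 further genes of the VEGF, PDGF, angiopoietin, angiopoietin-like and FGF families, not all of them encoding secreted ligands, 16 were tested. In epididymal cells 3 rose and 3 fell, and in inguinal cells 7 rose and 1 fell. Fgf13, an FGF-like intracellular protein, rose in both depots (log2 3.88 and 2.55). Pdgfb and Pdgfd, growth factors for mural cells, fell in epididymal cells (log2 −1.56 and −1.27). Pdgfd rose in inguinal cells (5.62 ± 1.26 to 11.6 ± 1.10 FPKM, SD, n = 3 each) and differed between depots in its diet effect (interaction −2.28, adjusted p = 0.00406). Vegfd, a second lymphatic factor, was not called in epididymal cells (10.0 ± 1.44 and 12.6 ± 2.72 FPKM, adjusted p = 0.537).

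Genes of pathways that can drive Vegfa and Angptl4 were counted as well. Of 23 hypoxia regulators and targets 9 rose and 2 fell in epididymal cells, and 5 rose and 3 fell in inguinal cells. Hif1a rose in both (log2 0.92, adjusted p = 0.000853 and 0.72, 0.00586), while Epas1, which endothelial cells also express, fell in epididymal cells (log2 −1.18, adjusted p = 0.000338) and the lipid droplet protein Hilpda rose in both (log2 2.20 and 1.49). Of 19 regulators and targets of peroxisome proliferator-activated receptors, 2 rose in epididymal and 7 in inguinal cells, and 0 fell. Counts of these gene lists stand beside the shares of all genes given above, 12.2% higher and 7.35% lower in epididymal and 9.3% higher and 10.2% lower in inguinal cells, and the 2 of 19 is near that background. Cpt1a, an enzyme gene of mitochondrial fatty acid uptake, rose in both depots (log2 0.96 and 0.99), as did Plin2, which coats lipid droplets (log2 2.18 and 1.30).

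Across the 12 white libraries the genes whose centred log2 profile lay nearest to a factor were found by root mean square difference. Those nearest to Fgf1 were the annexins Anxa2 (0.235) and Anxa1 (0.252) and the peptide-amidating enzyme Pam (0.275), beside a root mean square of 1.19 for Fgf1 around its own mean. Nearest to Angpt1 (own value 0.97) were Apol10b (0.246), Galnt15 (0.293) and Zfp366 (0.334). Nearest to Angptl4 (own value 0.71) were the annexin Anxa5 (0.154), Bcap31 (0.177) and Mmp28 (0.177). Plcd3 (0.155), Dab2ip (0.159) and Acp5 (0.163) lay nearest to Vegfa, and Prkag2 (0.117), Cuedc1 (0.119) and Kcns3 (0.126) to Vegfb. The profiles share libraries and their scaling, so these distances are descriptions. Angpt1 and Fgf1 were the least alike pair of the 10, with a root mean square difference of 2.03.

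The brown libraries, 1 per diet, allow no test. On the high-fat diet 4 factors differed at least 2-fold on the log2(FPKM + 0.5) scale among those with a mean of at least 1 FPKM, where 17.6% of all such genes did, 11.1% higher and 6.49% lower. Vegfa was lower, at 70.6 against 156 FPKM, and Angpt1 was lower, at 4.15 against 9.25 FPKM. Fgf1 was higher, at 20.6 against 7.19 FPKM, and Angpt2 was higher, at 2.89 against 0.133 FPKM. Vegfb (100.3 and 103 FPKM) and Angptl4 (186 and 181 FPKM) stood at nearly the same level on the high-fat and normal diets. The log2 ratio of Angpt2 to Angpt1 was −3.95 on the normal and −0.46 on the high-fat diet, and that of Vegfa to Kdr was 3.42 and 0.86. Summed endothelial markers were 129 FPKM in the normal-diet and 381 FPKM in the high-fat brown library, the opposite order to the epididymal libraries. Macrophage markers were 27.4 and 145 FPKM and adipocyte markers 38024 and 17910 FPKM. What these differences contribute to the brown values of the factors was not tested.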

How the data were processed

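The deposited values are FPKM per gene for each library, made by the authors with TopHat2 2.0.9 and Cuffdiff 2.1.1 on mm10, per the submitters' processing notes. The file headers name only the library, and the unit follows from Cuffdiff and the range of the values. For the annotation, strand setting and count normalization, details are not given in the sources used here. These values hold no read counts, so precision rests on the spread between replicates, and a gene overlapping another is uncertain. Symbols were matched to 36638 of 38553 identifiers, with coordinates from RefSeq for GRCm38.p6.

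Genes with at least 0.5 FPKM in at least 3 of the 12 white libraries were tested with limma 3.58.1 in R 4.3.3 (trend, two-sided) on log2(FPKM + 0.5), as 4 group means with 8 residual degrees of freedom. Fold changes in FPKM are ratios of group means, whereas a log2 difference is of log2(FPKM + 0.5) and is therefore smaller for genes of low level. The fit was tested on simulated data. Ratios within libraries were tested by exact two-sided permutation. Pooled mice make each library a mean over animals.

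The members and the 19 other gene lists were chosen with earlier results of these data known. Of each list, up to 3 called genes per contrast with the lowest adjusted p could be named, besides 11 fixed genes (such as Kdr, Tek, Lpl and Hif1a), and 3 nearest genes per factor with a mean of at least 2 FPKM. Deviations of same-numbered libraries from their group means correlated at 0.184, 0.111 and 0.146 for the high-fat depot comparison, so the labels' replicate numbers pair those libraries by the data alone. For the other comparisons at least 1 number correlated at 0.1 or less. Single numbers reached similar or higher values there, at 0.27 for inguinal diet replicate 0 and at 0.18 and 0.16 for epididymal diet replicates 0 and 2. In all comparisons a library correlated most with the one of its own number, except for inguinal diet replicate 2. The main fit used no pairing.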

Additional observations from a re-analysis of the deposited data

Results flagged for a closer look

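The diet effect on Angpt1 differed between the white depots by the interaction test. The log2 difference between the epididymal effect (−2.40) and the inguinal effect (−0.76) was −1.64 (SE 0.40, limma adjusted p = 0.0308), with adjusted p between 0.00788 and 0.133 over 22 alternatives. Angpt1 was lower in 3 of 3 epididymal high-fat libraries than in any epididymal normal-diet one, while the inguinal groups overlapped. In the same libraries Tek, its receptor, had an interaction of −1.88 (adjusted p = 0.0237). The summed endothelial markers of the epididymal high-fat libraries lay below those of the other white groups. Of 7 mural markers 2 were called lower and 0 higher in the interaction (median −1.68), beside 2.42% of all genes called lower. The part of endothelial and mural markers in the Angpt1 value was not tested.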

How the results depend on the processing

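Alternatives were a pseudocount of 0.1 or 1, a filter of 2 FPKM or none, TMM factors, quantile normalization, scaling to nuclear protein-coding FPKM, array weights, a fit on only the groups compared, a replicate block, each of the 12 libraries left out, and inguinal normal-diet replicates 0 and 2 left out together. Of 1135 member values, 1006 kept their direction and side of the threshold, 53 lost and 33 gained a call, and 43 changed sign, none of them called. The cause was not tested for any change. The interaction could not be fitted on only the groups compared, and Pgf could not be tested under the filter of 2 FPKM. Nuclear scaling moved the median of all genes to −0.15 in the high-fat depot comparison. Depth is unknown, so how far counting error limits the low genes Pgf, Vegfc and Angpt2 cannot be given. With a library left out, the spread shared by the 4 groups was used.

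Only the larger changes of a count are listed here and in the next paragraph, so settings not named can have moved a count by less. Genes called, 2918 for diet in epididymal cells, became 5110 with array weights. For diet in inguinal cells 2914 became 713 on only the groups compared, 4612 with array weights and 999 without the 2 inguinal libraries. For the interaction 1080 became 695 with no filter and 2836 with array weights. For depots on the normal diet 974 became 577 with no filter, 14 on only the groups compared, 2098 with array weights and 562 without the 2 libraries, and on the high-fat diet 1587 became 2993, 3681 and 2599 under the last 3 of these. With single libraries left out the counts ran from 1819 to 3665, 1642 to 4727, 433 to 2627, 264 to 3092 and 783 to 2151 in that order.

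Factors called for diet in epididymal cells, 5, became 3 under the filter of 2 FPKM and 4 with the replicate block. Vegfc was also lost with a pseudocount of 0.1 and with no filter. Quantile normalization and nuclear scaling lost Vegfc as well but added Vegfb. In inguinal cells 2 became 1 with no filter, on only the groups compared and without the 2 libraries, and 4 with array weights. The interaction count of 1 became 2 with a pseudocount of 0.1, TMM factors or the replicate block, 3 with quantile or nuclear scaling, 4 with array weights, and 0 with no filter or without the 2 libraries. On the normal diet the depot count of 0 became 1 with TMM factors, quantile normalization or the replicate block, and 2 with array weights. On the high-fat diet 2 became 1 with a pseudocount of 1 or either other filter, and 4 with quantile or nuclear scaling or only the groups compared. Array weights added Vegfa there. With single libraries left out the counts ran from 2 to 5, 1 to 3, 0 to 2, 0 to 1 and 0 to 2 in the order above.

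By the limit of 0.1 the numbers counted as pairs only in the high-fat depot comparison, where the replicate block changed no call on the 10 factors (2 called). In the other comparisons that limit was not met for every number, and whether those libraries are paired is unknown. There the replicate block took Vegfc out of the epididymal calls (adjusted p = 0.0618), added Pgf to the interaction (0.0217) and Fgf1 to the normal-diet depot comparison (0.0495), and gave 3404, 3453, 1152 and 1085 genes called for diet in epididymal cells, diet in inguinal cells, the interaction and depots on the normal diet.

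The values that changed sign follow. Without the 2 inguinal libraries, depot differences on the normal diet were −0.13 for Angpt1, 0.25 for Angpt2, −0.78 for Angptl2, −0.29 for Angptl4 and −0.55 for Vegfa, inguinal diet differences −0.96 for Angptl2 and −0.10 for Vegfa, and interactions 0.52 for Angptl2, 0.35 for Fgf1 and 0.014 for Vegfa. With quantile normalization they were 0.18 for Angpt2 and −0.049 for Vegfa between depots on the normal diet and −0.048 for Angptl2 with diet in inguinal cells. With nuclear scaling they were −0.0059 for that Angptl2 value, −0.021 for Vegfa between depots on the normal diet, −0.051 for Fgf2 on the high-fat diet and −0.041 for the Angptl4 interaction, which was −0.025 with TMM factors and −0.48 with array weights. Array weights gave 0.34 for Angpt2 on the normal diet.

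With single libraries left out the depot differences on the normal diet ranged from −0.31 to 0.28 for Angpt2, −0.22 to 0.73 for Angptl2, −0.10 to 0.87 for Fgf2 and −0.11 to 0.39 for Vegfa, and on the high-fat diet from −0.30 to 0.45 for Fgf2 and −0.30 to 0.015 for Vegfc. Epididymal diet differences ranged from −0.47 to 0.15 for Angpt2 and −0.34 to 0.10 for Vegfa, inguinal ones from −0.39 to 0.55 for Angptl2, −0.70 to 0.054 for Fgf2 and −0.14 to 0.25 for Vegfc, and interactions from −0.23 to 0.41 for Angptl4 and −0.80 to 0.26 for Fgf2. Depot differences of ratios on the normal diet ranged from −0.73 to 0.20 for Angpt2 to Angpt1, −0.039 to 1.30 for Fgf1 to Fgf2 and −0.39 to 0.22 for Vegfa to Kdr, and the inguinal diet difference of the Vegfa share from −1.13 to 4.88 points.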

Other observations

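Secreted inhibitors of vessel growth were not described above. Of 12 tested of 14 such genes, 4 rose and 3 fell in epididymal cells on the high-fat diet, and 5 rose and 2 fell in inguinal cells. These counts and those of the next paragraph stand beside 12.2% of all genes called higher and 7.35% lower in epididymal cells. In inguinal cells the shares were 9.3% and 10.2%. Col18a1, whose collagen releases endostatin, rose in both depots (24.8 ± 7.24 to 108 ± 20.8 FPKM and 16.6 ± 9.48 to 78.9 ± 11.95 FPKM, SD, n = 3 each, limma adjusted p = 0.000917 and 0.00111). Timp3, a metalloproteinase inhibitor that also blocks KDR, fell in epididymal cells from 127 ± 40.4 to 15.2 ± 4.67 FPKM (adjusted p = 3.86e-05), and its diet effect differed between depots (interaction −2.72, adjusted p = 0.00525).

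Of 15 tested of 16 other secreted angiogenic factors, 3 rose and 5 fell in epididymal and 4 rose and 1 fell in inguinal cells. Egfl7, secreted by endothelial cells, fell in epididymal cells from 135 ± 18.3 to 21.3 ± 6.27 FPKM (adjusted p = 0.000148). Apln, which encodes apelin, stood at 3.73 ± 0.406 and 1.49 ± 0.420 FPKM in epididymal and at 2.12 ± 0.204 and 7.33 ± 1.95 FPKM in inguinal cells on the normal and high-fat diets, and its diet effects differed (interaction −2.65, adjusted p = 0.00275). Of 7 mural markers 1 rose and 3 fell in epididymal cells, and 3 rose and 0 fell in inguinal cells. Rgs5, a pericyte marker, fell from 88.2 ± 5.90 to 12.2 ± 2.14 FPKM in epididymal and rose from 32.6 ± 12.3 to 67.9 ± 4.74 FPKM in inguinal cells (interaction −3.94, adjusted p = 0.000985).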
